A study of Mus musculus with 48 samples.

Results

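The respiratory chain genes of the mouse striatum were followed across 6 genotype groups, in both the nuclear and the mitochondrial genome. Members were all genes of the count table whose symbol matched a naming rule and that had at least 10 counts in 7 or more libraries. The rule was written for subunits of complexes I to V, cytochrome c1 and cytochrome c. It took Nduf followed by a, b, c, s or v and a digit, Sdha to Sdhd, the prefixes Uqcr, Cox4 to Cox8 and Atp5, Cyc1, Cycs and the protein-coding mt- genes. Nduf symbols of another form, such as Ndufab1, do not match it, so the complex I list need not be complete. The symbol rule matched 105 of 48795 genes, and 102 of these met the count minimum; Cox8b, Cox8c and Atp5l-ps1 did not. Of the 102, 13 are encoded by mitochondrial DNA and 89 by nuclear DNA. The complexes have 42 members in complex I (35 nuclear, 7 mitochondrial), 4 in complex II, 10 in complex III (9 nuclear, 1 mitochondrial), 21 in complex IV (18 nuclear, 3 mitochondrial) and 17 in complex V (15 nuclear, 2 mitochondrial). Cycs, which encodes the electron carrier cytochrome c, 2 associated genes that carry an Atp5 symbol (Atp5s and Atp5sl) and 5 pseudogenes make up the rest. Members were chosen by name and not by their values, and all 102 passed the filter on low counts.

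RNA came from the corpus striatum of C57BL/6 mice aged 6 months, 24 female and 24 male. By their labels the 48 libraries were 8 Q140 Msh3-/-, 8 Q140 Msh3+/-, 8 Q140, 8 Msh3-/-, 9 Msh3+/- and 7 wild type. Q140 mice, a model of Huntington's disease, are heterozygous for an Htt allele with a lengthened CAG repeat knocked in; it is carried in the germ line, so every cell of the tissue has it; Q140 and wild type mice carry no Msh3 mutation by label. Msh3 encodes a mismatch repair protein, and the labels do not describe how its mutant allele was made. The labels do not say that each library is a separate mouse; if some are not, the p-values measure only the spread between these libraries.

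Complexes I to IV pass electrons from NADH and succinate to oxygen, and complexes I, III and IV pump protons that drive ATP synthesis by complex V. Complex II is built wholly from nuclear genes, while the other complexes combine nuclear subunits with a few subunits that mitochondria transcribe and translate themselves, so the complexes depend on output from both genomes. Striatal medium spiny neurons have a high demand for ATP, and toxins that inhibit complex II damage the striatum in animals.

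The labels and the libraries were checked first. Msh3 averaged 125.2 ± 6.6 CPM (counts scaled to a common library size with TMM, the trimmed mean of M values) in libraries labelled Q140 Msh3-/- and 119.7 ± 7.03 CPM in those labelled Msh3-/-, against 30.98 ± 1.46 CPM in wild type libraries (SD, n = 8, 8 and 7). It averaged 76.97 ± 3.14 CPM in libraries labelled Q140 Msh3+/- and 77.44 ± 4.74 CPM in those labelled Msh3+/-, and 32.07 ± 1.27 CPM in Q140 libraries (SD, n = 8, 9 and 8). Msh3 reads were thus higher with each mutant allele on the label and went against both the knockout and the heterozygous labels, and every direction drawn below between Msh3 groups rests on the labels alone. Markers of medium spiny neurons had lower reads in Q140 libraries, with all 12 marker genes called lower against wild type. Their summed level ran from 9014 to 13540 CPM in Q140 libraries and from 15990 to 18050 CPM in wild type libraries, without overlap. Of the astrocyte markers 5 of 8 were called lower, with summed levels of 3364 to 4244 CPM in Q140 libraries and 4539 to 4920 CPM in wild type libraries. Called lower were also 3 of 8 microglial, 3 of 8 endothelial and mural, 2 of 7 interneuron and 1 of 8 oligodendrocyte markers, and no marker of these lists was at 0 in any library. Of 6 cortical neuron markers 1 was called higher and 1 lower. Their summed level ran from 58.99 to 92.12 CPM in Q140 libraries and from 43.97 to 139.2 CPM in wild type libraries, highest in wild type M3, and reached 187.3 CPM in Msh3+/- F5. Htt, the targeted gene, averaged 191.7 ± 16.3 CPM in Q140 libraries and 209.2 ± 3.15 CPM in wild type libraries (SD, n = 8 and 7), with overlapping ranges, and was called lower at a log2 fold change of -0.13 (SE 0.042, edgeR adjusted p 0.0249). Summed markers of choroid plexus and ependyma had group medians of 27.06 to 35.19 CPM, but reached 4194 CPM in Q140 Msh3+/- F1 and 609.9 CPM in wild type M2. In bulk tissue, fewer cells of a type and less RNA per cell cannot be told apart. The TMM factors of the 8 Q140 libraries, 1.009 to 1.09, were also all above those of the 7 wild type libraries, 0.97 to 1.002, and library totals ran from 33.67 to 52.81 M counts. The part of these shifts in the results below was not tested beyond the other scalings given with them.

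Mitochondrial mRNAs held 5.87% to 7.96% of all counts in the 48 libraries, and the 82 nuclear genes of the subunits and of cytochrome c together held 0.619% to 0.765%. Per gene length, in the FPKM deposited by the authors (fragments scaled by gene length and library total), the highest members were mt-Co1, the catalytic subunit of complex IV, at 15820 ± 994 FPKM (SD, n = 48), and mt-Cytb, the cytochrome b of complex III, at 14180 ± 984 FPKM. The complex I membrane subunits mt-Nd1, mt-Nd2, mt-Nd5 and mt-Nd4 followed at 9289, 6861, 4502 and 3499 FPKM. Next came mt-Nd6, the only subunit gene on the light strand, at 369.4 ± 44.7 FPKM. The other 6 mitochondrial members lay far below these, from mt-Atp8 at 112.4 ± 34.8 FPKM through mt-Co2 at 70.13, mt-Atp6 at 59.15, mt-Co3 at 58.8 and mt-Nd3 at 22.07 to mt-Nd4l at 17.99 FPKM.

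**Figure D1:**
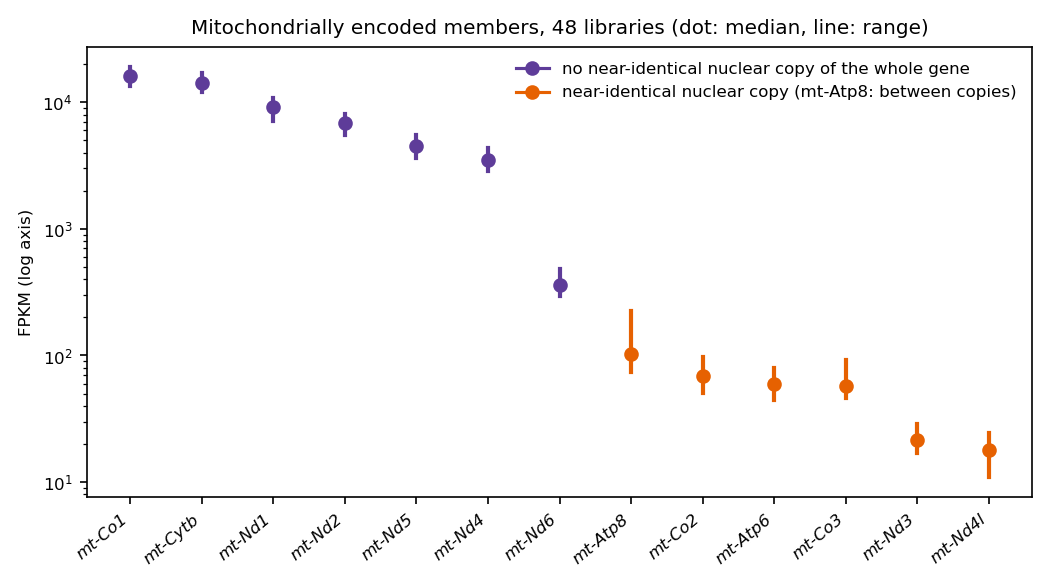
FPKM on a log axis of the 13 mitochondrially encoded members, with dots at the median and lines over the range of the 48 libraries. The 6 members in orange have, or lie between, near-identical nuclear copies, and all 6 sit below the 7 members in purple; mt-Atp8 reaches 223 FPKM at most, against 296 FPKM at least for mt-Nd6.

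The 6 low members share a feature that the symbol rule did not use. Nuclear chromosome 1 carries a stretch of mitochondrial sequence with 7 annotated copies, chr1:24611535-24616197 on GRCm38, minus strand. Against it and all other annotated transcripts, mt-Co2 matched a copy at 100% identity over 681 of its 684 bases, mt-Co3 over 783 of 784, mt-Atp6 over 678 of 681 and mt-Nd4l over 294 of 297, and mt-Nd3 matched over 345 of 348 bases with 1 mismatch, at 99.7%. The mt-Atp8 gene, 204 bases long, lies between mt-Co2 and mt-Atp6, and the nuclear stretch has 233 bases between the copies of these genes. The other 7 members had partial or diverged copies or none. A copy of 63.6% of mt-Nd4 was identical to it, and 31.3% of mt-Co1 matched Gm29216 with 1 mismatch, at 99.8%. Diverged copies covered 49.1% of mt-Nd2 at 96.7% identity and 52.3% of mt-Nd5 at 95.2%, and mt-Co1 matched Gm13340, a pseudogene on chromosome 2, over its whole length at 97.6% with 37 mismatches. The first 120 aligned bases of mt-Co2, chrM:7013-7132, and of its copy Gm28661, chr1:24615446-24615565 on the minus strand, are shown with those of mt-Co1, chrM:5328-5447, and of Gm13340, chr2:22589528-22589647 on the minus strand, to set an exact copy beside a diverged one. Sequences are 5′ to 3′ on GRCm38, and capitals mark the bases at which the pair differs.
mt-Co2: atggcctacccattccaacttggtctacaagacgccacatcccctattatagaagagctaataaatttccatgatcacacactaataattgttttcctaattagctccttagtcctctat
Gm28661: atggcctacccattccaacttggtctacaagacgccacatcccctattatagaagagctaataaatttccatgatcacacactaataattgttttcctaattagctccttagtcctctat
mt-Co1: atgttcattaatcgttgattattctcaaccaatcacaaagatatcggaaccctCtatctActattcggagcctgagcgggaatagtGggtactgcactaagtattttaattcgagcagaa
Gm13340: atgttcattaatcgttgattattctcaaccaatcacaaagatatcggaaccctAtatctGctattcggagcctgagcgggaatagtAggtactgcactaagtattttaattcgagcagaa

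The mt-Co2 and Gm28661 lines have no capitals, while 3 bases differ between mt-Co1 and Gm13340. The table gave Gm28661 a median of 1578 counts per library (1117 to 2537) and Gm10925, the copy of mt-Atp6, a median of 2282.5 counts (1585 to 3636). How reads with more than 1 best match were counted is not given in the sources used here, so the levels of mt-Co2, mt-Co3, mt-Atp6, mt-Nd3, mt-Nd4l and mt-Atp8 are uncertain, and the mitochondrial genome is summarised below by the 7 members with no near-identical copy of the whole gene; reads from the copied parts of mt-Nd4 and mt-Co1 may still be shared. Likewise mt-Nd6 overlaps mt-Nd5 by 14 bases on the other strand, and it is not stated whether counting used strand.

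Among nuclear members, complex IV had both the highest levels, Cox8a at 302.5 ± 20.3 FPKM and Cox6a1 at 237.4 ± 22.0 FPKM, and the lowest, Cox7b2 at 0.357 ± 0.156 FPKM (SD, n = 48). Complex V was led by Atp5a1 and Atp5b, the alpha and catalytic beta subunits of its F1 head, at 232.0 and 189.0 FPKM. Ndufb9 led complex I at 141.0 FPKM, Sdha, the flavoprotein of complex II, led its complex at 95.21 FPKM, and Uqcrh led nuclear complex III at 82.73 FPKM. The lowest nuclear members of these complexes were Ndufb4 at 2.316, Sdhc at 16.25, Uqcrq at 23.1 and Atp5g2 at 1.834 FPKM. Ndufb4 has a pseudogene copy, Ndufb4c, identical to 40.2% of its transcript, so some reads may be shared and its rank is uncertain. Cycs had 2.115 ± 0.23 FPKM, and it has annotated pseudogene copies that can share its reads. Several subunits come in isoforms from separate genes, and 1 isoform prevailed in every library. The FPKM of Cox4i1 was 55.2 to 101 times that of Cox4i2, an isoform known from lung, and the FPKM of Cox6a1 was 31.4 to 53.0 times that of the heart and muscle isoform Cox6a2. Cox7a2 had 59.0 to 322 times the FPKM of the muscle isoform Cox7a1, Cox6b1 62.6 to 233 times that of the testis isoform Cox6b2, and Ndufa4, a complex IV subunit despite its symbol, 25.8 to 47.8 times that of Ndufa4l2. Cox5a and Cox5b, which encode different subunits, were closer, at a ratio of 1.45 to 2.06. Of the 3 genes for the same c-ring protein of complex V, Atp5g3 exceeded Atp5g1 by 7.65 to 10.3 times and Atp5g2 by 21.8 to 34.4 times in FPKM. Mean counts were 5112.9 for Atp5g3 and 1270.1 for Atp5g1, so this FPKM ratio also rests on the gene lengths used. Gm10039, a pseudogene of Atp5g1, matches it over 411 bases at 99.8% identity. This copy had a median of 1536 counts per library, beside a mean of 1270.1 for Atp5g1, so the level of Atp5g1 is uncertain.

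In Q140 libraries against wild type, most nuclear members lay slightly above 0 and, with TMM scaling, most mitochondrial members below 0 on the log2 scale. Of the 102 members, 20 rose in Q140 libraries (9.64% of all 19975 genes tested were called higher) and 3 fell (10.2% called lower), in edgeR's quasi-likelihood test with Benjamini-Hochberg adjusted p under 0.05 over all genes. Among the 82 nuclear genes of subunits and cytochrome c, 18 rose and 1 fell, with a median log2 fold change of 0.07, and 70 had a value above 0; over all genes the median was 0.0145 and 53.7% lay above 0. Among the 7 mitochondrial members without a near-identical copy, none rose, mt-Nd2 and mt-Nd6 fell, and all 7 values lay below 0 with TMM scaling, at a median of -0.09. With plain library totals the nuclear median was 0.154, with 78 of 82 above 0, 62 members rose and none fell, and the mitochondrial median was -0.012 with 3 of 7 above 0, while the median of all genes moved to 0.0951. Under that scaling 5076 of all 19975 genes were called higher and 1104 lower. Nuclear values were thus mostly above 0 under both scalings. The mitochondrial median was below 0 under both, but its size and the direction of 3 of the 7 values depended on the scaling. Without 5 libraries picked after the data were seen, 11 members were called, all among the 23. These 5 were Q140 F4 and M2, Q140 Msh3+/- F4, and wild type F3 and M2, named by group, sex and number. Leaving out single libraries lowered the count most without wild type F3, when 13 remained of the 23, and without wild type F2, when 14 did.

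**Figure D2:**
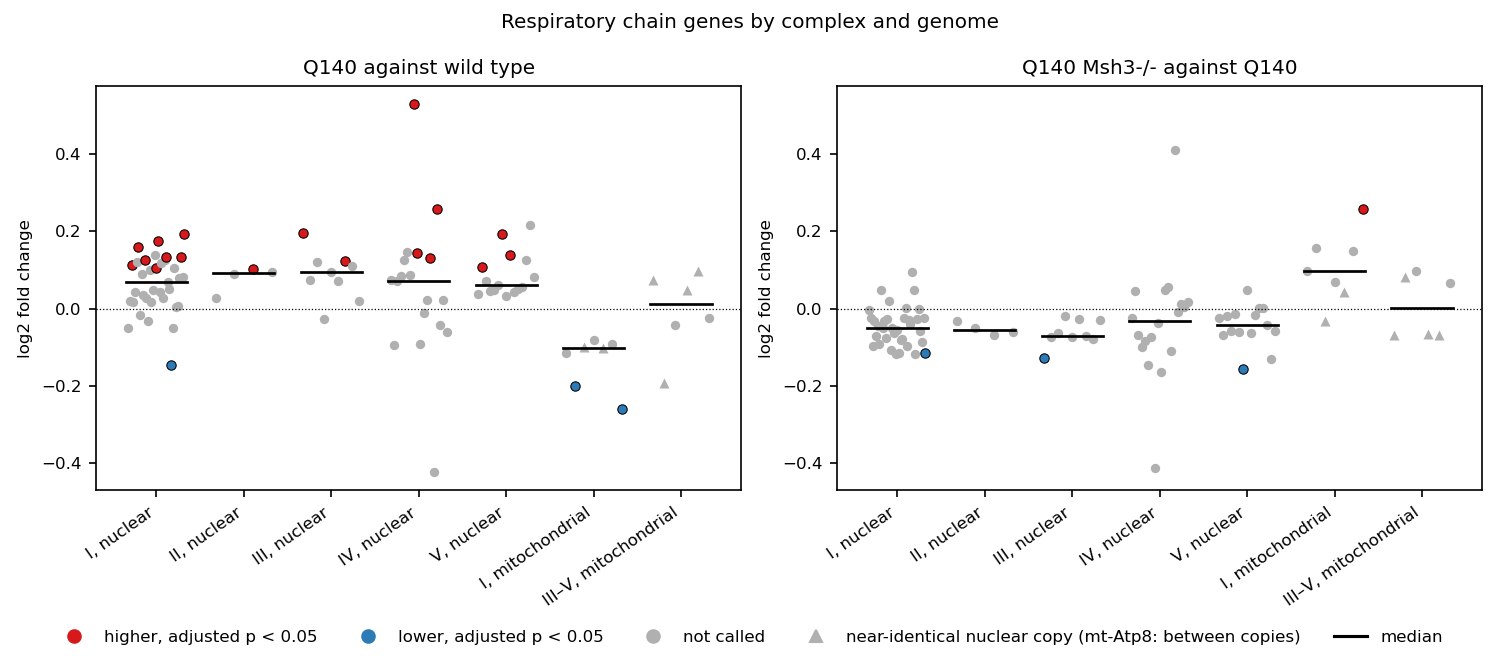
Log2 fold change of each member (points) by complex and genome, for Q140 against wild type on the left and Q140 Msh3-/- against Q140 on the right, with TMM scaling; black lines are medians, red and blue points are called, and Cycs, associated genes and pseudogenes are not drawn. On the left the 5 nuclear medians lie between 0.06 and 0.09 and the median of the complex I mitochondrial members at -0.10; on the right the nuclear medians lie between -0.07 and -0.03. The comparisons share the Q140 libraries.

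Library by library the same measures overlapped. For each library the median deviation of the 82 nuclear genes from their mean over the 48 libraries was taken, on the log2 CPM scale. In Q140 libraries it had a lowest, median and highest value of -0.01, 0.05 and 0.17, against -0.09, -0.05 and 0.05 in wild type libraries. All 8 Q140 libraries lay above the wild type median, and 4 above the highest wild type library. The same measure over the 7 mitochondrial members was -0.28, -0.09 and 0.07 in Q140 libraries and -0.14, 0.11 and 0.18 in wild type libraries, with all 8 Q140 libraries below the wild type median and the ranges overlapping. As a share of all counts, with no scaling, nuclear respiratory genes held 0.6782% to 0.7651% in Q140 libraries and 0.6247% to 0.6775% in wild type libraries, and every Q140 library lay above every wild type library. The TMM factors separated these libraries in the same way, and with library totals the median log2 fold change of all genes was 0.0951. The part of that shift in the nuclear share was not tested. Mitochondrial mRNAs held 6.18% to 7.55% in Q140 libraries and 6.12% to 7.46% in wild type libraries, which overlapped throughout.

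The other 4 groups lay between or beside these. The nuclear deviation had medians of 0.0021 in libraries labelled Q140 Msh3-/- (-0.10 to 0.06), -0.02 in Q140 Msh3+/- (-0.09 to 0.17), 0.0067 in Msh3-/- (-0.05 to 0.04) and -0.0043 in Msh3+/- (-0.10 to 0.08). The mitochondrial deviation had medians of 0.05 in libraries labelled Q140 Msh3-/- (-0.11 to 0.21), -0.06 in Q140 Msh3+/- (-0.28 to 0.21), 0.10 in Msh3-/- (-0.11 to 0.15) and -0.01 in Msh3+/- (-0.24 to 0.17). Q140 Msh3+/- F4 and Q140 F4 had the highest nuclear values of the 48 libraries, both at 0.17.

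**Figure D3:**
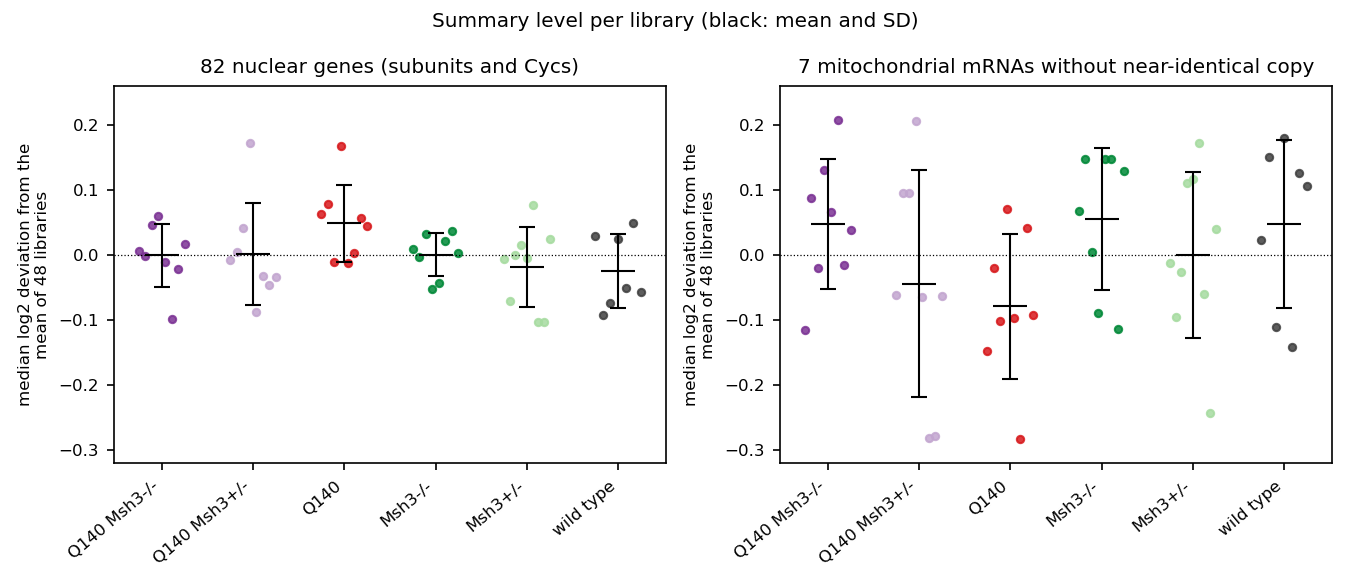
Each point is a library, and its height is the median log2 deviation of the 82 nuclear genes (left) or of the 7 mitochondrial mRNAs with no near-identical copy (right) from their mean over 48 libraries; black marks are group means with SD. Q140 libraries run from -0.01 to 0.17 on the left and from -0.28 to 0.07 on the right, and wild type libraries from -0.09 to 0.05 and from -0.14 to 0.18.

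In complex I, 8 of the 35 nuclear members rose in Q140 libraries and 1 fell, with a median log2 fold change of 0.07 and 30 values above 0. Ndufv3, an accessory subunit of the NADH-binding module (chr17 on GRCm38), had a lowest, median and highest level of 52.81, 56.99 and 58.27 CPM in Q140 libraries and 46.73, 48.29 and 52.5 CPM in wild type libraries. Every Q140 library was above every wild type library, and Ndufv3 was the only member without overlap (1.68% of all genes tested were higher without overlap). Ndufv3 thus had a log2 fold change of 0.19 (SE 0.041, edgeR adjusted p 0.000418), 1.14 times the wild type level. Ndufv1, the core subunit that binds NADH and FMN, had 104.8, 107.1 and 113.8 CPM in Q140 libraries and 90.68, 96.59 and 107.6 CPM in wild type libraries, with overlapping ranges, and its log2 fold change was 0.13 (SE 0.036, edgeR adjusted p 0.00628). The other members that rose are accessory subunits, Ndufc2 by 0.13 on the log2 scale, Ndufb6 by 0.17, Ndufa3 by 0.16, Ndufb5 by 0.10, Ndufa11 by 0.11 and Ndufa8 by 0.13, with edgeR adjusted p from 0.014 to 0.0489. Leaving out 1 of the 15 libraries at a time ended the call of Ndufa8 in 11 cases, Ndufa11 in 10, Ndufb5 in 8, Ndufa3 in 3 and Ndufb6 in 2, and that of Ndufc2 in none. Ndufb5, Ndufb6 and Ndufa11 overlap genes on the other strand by 616, 350 and 256 bases.

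Ndufs3 was the nuclear member that fell. It encodes a core subunit of the module that passes electrons towards ubiquinone, and had 38.05, 39.69 and 42.77 CPM (lowest, median and highest) in Q140 libraries and 42.1, 44.8 and 46.71 CPM in wild type libraries. Of the 8 Q140 libraries 7 lay below the lowest wild type library. The log2 fold change of Ndufs3 was -0.15 (SE 0.034, edgeR adjusted p 0.00135), and the call was lost with library totals and in FPKM, with the sign kept. Ndufs3 overlaps Kbtbd4 on the other strand by 88 bases and has a pseudogene, Gm12251, that matches 75.7% of its transcript at 98.6% identity.

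In complex II, whose subunits are all nuclear, 1 of 4 members rose, all 4 values were above 0 and the median log2 fold change was 0.09. Sdhc, a membrane anchor subunit, had 52.41, 54.95 and 60.98 CPM in Q140 libraries and 50.14, 51.99 and 53.22 CPM in wild type libraries, with overlapping ranges. Sdhc had a log2 fold change of 0.10 (SE 0.034, edgeR adjusted p 0.0242). Sdha, the flavoprotein, had the smallest value, 0.03 (SE 0.028, edgeR adjusted p 0.547), with 363.2, 373.9 and 401.9 CPM in Q140 libraries and 346.1, 372.7 and 381.9 CPM in wild type libraries. Sdhb and Sdhd, the iron-sulfur subunit and the other anchor, had log2 fold changes of 0.09 each and were not called.

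In complex III, 2 of 9 nuclear members rose, 8 values were above 0 and the median was 0.09. Cyc1, cytochrome c1, which hands electrons to cytochrome c, had the smallest p of all members. Its levels were 73.97, 79.61 and 81.87 CPM in Q140 libraries and 62.34, 69.24 and 74.38 CPM in wild type libraries, with 7 of 8 Q140 libraries above the highest wild type library. The log2 fold change of Cyc1 was 0.20 (SE 0.039, edgeR adjusted p 0.000229). Uqcrfs1, the Rieske iron-sulfur protein, had 47.63, 52.04 and 56.83 CPM in Q140 libraries and 44.77, 46.84 and 51.33 CPM in wild type libraries, a log2 fold change of 0.12 with adjusted p 0.0107. Uqcrb, a small subunit near the ubiquinone site, was lowest at -0.03 (SE 0.046) and was not called. Cycs itself, the carrier between complexes III and IV, had 6.147, 7.227 and 9.19 CPM in Q140 libraries and 6.728, 7.194 and 8.584 CPM in wild type libraries, and its log2 fold change of 0.01 (SE 0.07) did not pass the test.

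In complex IV, 4 of 18 nuclear members rose, 12 values were above 0 and the median was 0.07. The 11 genes of the standard subunits had a median of 0.08 with 3 called, and the 7 tissue-restricted or related isoforms had a median of -0.06, with TMM scaling, and 1 called. Cox7c, a small structural subunit, had 7.826, 8.775 and 9.703 CPM in Q140 libraries and 6.702, 7.17 and 7.927 CPM in wild type libraries, with 7 of 8 Q140 libraries above the highest wild type library. Cox7c had a log2 fold change of 0.26 (SE 0.062, edgeR adjusted p 0.00184). The gene lies on chromosome 13, 6.16 Mb from Msh3. Another annotated gene, Gm10012, matches 32.9% of the Cox7c transcript at 99.6% identity, so some reads may be shared. Cox6c, also a structural subunit, had 86.25, 90.91 and 105.8 CPM in Q140 libraries and 76.65, 82.34 and 89.54 CPM in wild type libraries, a log2 fold change of 0.14 with adjusted p 0.0116; it lies opposite Vps13b over 5344 bases. Cox7b rose by 0.13 (adjusted p 0.038), and the testis isoform Cox6b2, at 1.135, 1.567 and 2.833 CPM in Q140 libraries and 0.767, 1.24 and 1.94 CPM in wild type libraries, rose by 0.53 (SE 0.19, adjusted p 0.0376). These last calls were less stable: Cox6b2 lost its call without 1 library in 6 of 15 cases and Cox7b in 7. The main isoforms Cox4i1, Cox5a, Cox6a1, Cox6b1 and Cox8a had log2 fold changes of 0.07, 0.07, 0.12, 0.09 and -0.04, and none was called.

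In complex V, 3 of 15 nuclear members rose, all 15 values were above 0 and the median was 0.06. Atp5g1, 1 of the 3 c-ring genes, had 27.44, 31.6 and 33.75 CPM in Q140 libraries and 25.21, 27.35 and 28.29 CPM in wild type libraries, with 7 of 8 Q140 libraries above the highest wild type library. Atp5g1 had a log2 fold change of 0.19 (SE 0.042, edgeR adjusted p 0.000584); its pseudogene Gm10039 matches it at 99.8% identity, so some reads may be shared. Atp5g3, the main c-ring gene, had 110.4, 119.1 and 132.0 CPM in Q140 libraries and 99.08, 108.0 and 117.8 CPM in wild type libraries, a log2 fold change of 0.14 (SE 0.036, adjusted p 0.00339), while Atp5g2 had 0.03 (SE 0.067) and was not called. Atp5b, the catalytic subunit, had 794.9, 832.7 and 899.5 CPM in Q140 libraries and 735.3, 786.8 and 819.8 CPM in wild type libraries, a log2 fold change of 0.11 with adjusted p 0.0142. Atp5l, subunit g, had the largest value, 0.21 (SE 0.085), and missed the threshold at an edgeR adjusted p of 0.0665. Atp5l had only 80 to 152 counts per library, and the pseudogene Gm4853 matches 72.4% of its transcript at 96.7% identity. Outside the complexes Atp5sl, a complex I assembly gene despite its symbol, rose by 0.13 (adjusted p 0.0063), and the pseudogene Atp5l-ps2, at 0.176 to 0.283 CPM in Q140 libraries and 0.0445 to 0.211 CPM in wild type libraries, rose by 1.04 (SE 0.34, adjusted p 0.0262). Atp5l-ps2 had a mean of only 7.6 counts, and its call was lost without 1 library in 4 of 15 cases. It lies opposite Brip1 over 314 bases and matches Atp5l at 95.4% identity over 263 bases, so some reads may be shared.

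**Figure D4:**
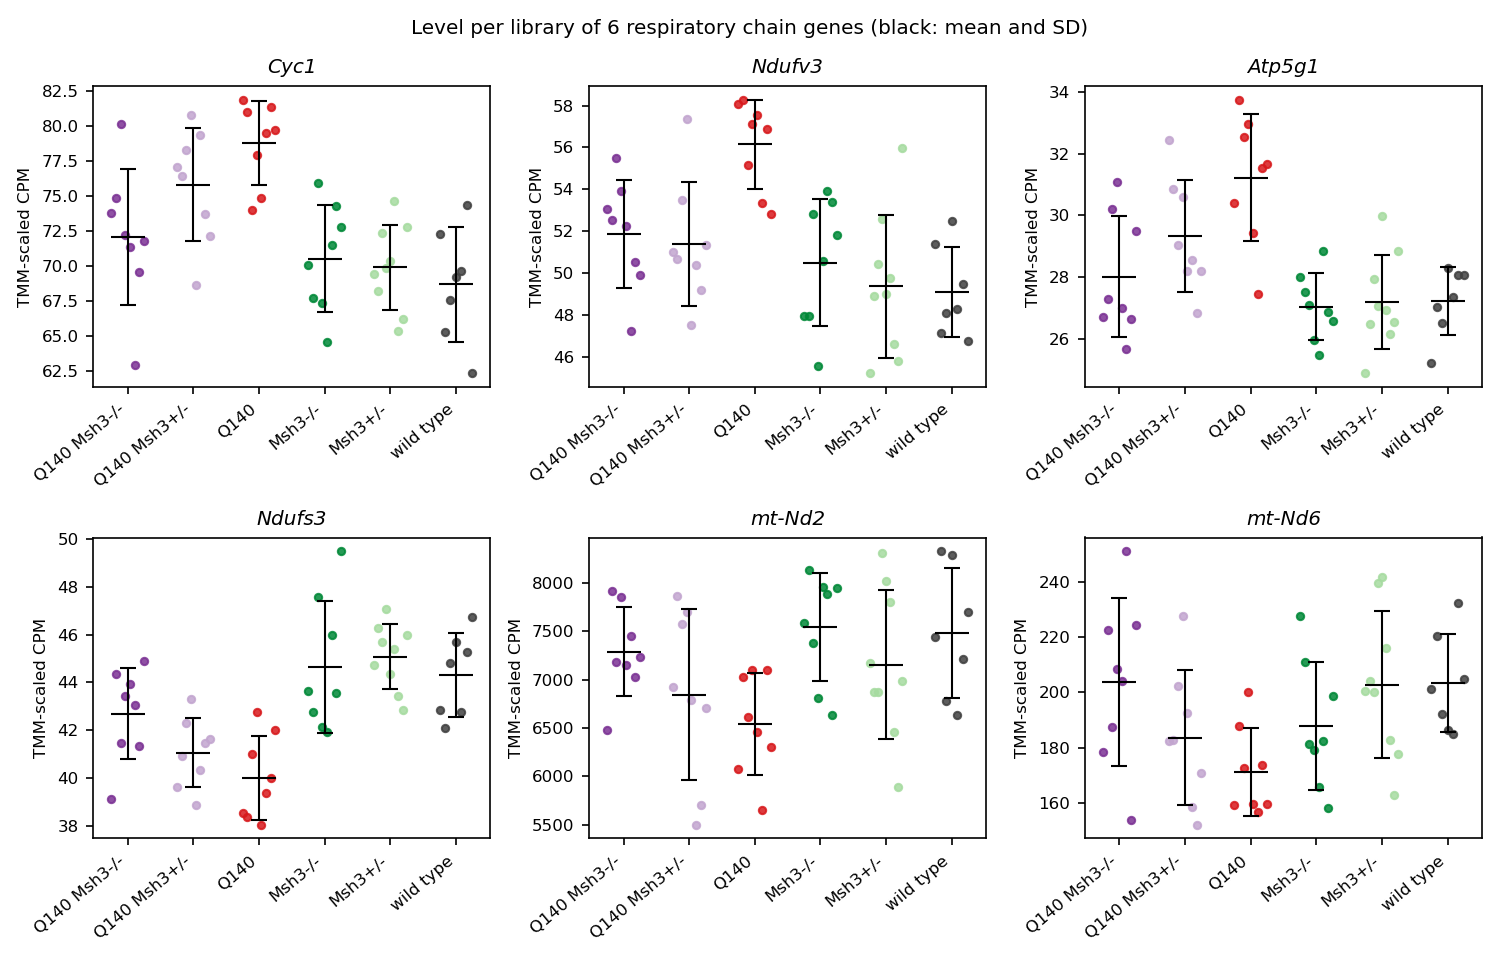
TMM-scaled CPM per library (points) in the 6 labelled groups for Cyc1, Ndufv3, Atp5g1, Ndufs3, mt-Nd2 and mt-Nd6, with group means and SD in black. By group medians, Q140 libraries are highest for Cyc1, Ndufv3 and Atp5g1 (79.61, 56.99 and 31.6 CPM) and lowest for Ndufs3, mt-Nd2 and mt-Nd6 (39.69, 6540 and 166.1 CPM).

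Both mitochondrial members that fell encode membrane subunits of complex I. The levels of mt-Nd6 were 156.6, 166.1 and 200.0 CPM in Q140 libraries and 185.1, 201.4 and 232.4 CPM in wild type libraries, and 6 of 8 Q140 libraries lay below the lowest wild type library. The log2 fold change of mt-Nd6 was -0.26 (SE 0.082, edgeR adjusted p 0.0196), and the call was lost without wild type M3. The levels of mt-Nd2 were 5646, 6540 and 7103 CPM in Q140 libraries and 6632, 7441 and 8329 CPM in wild type libraries, with 5 of 8 Q140 libraries below the lowest wild type library. The log2 fold change of mt-Nd2 was -0.20 (SE 0.066, edgeR adjusted p 0.0229), and the call was lost without Q140 F1, Q140 M2, wild type F2 or wild type M1. Both calls were also lost with library totals and in FPKM, with the sign kept.

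The other mitochondrial members were not called. The complex I subunits mt-Nd1, mt-Nd4 and mt-Nd5 had log2 fold changes of -0.11, -0.08 and -0.09, with SE from 0.073 to 0.082. The levels of mt-Co1 were 21750, 23680 and 24700 CPM in Q140 libraries and 20920, 24720 and 26980 CPM in wild type libraries, a log2 fold change of -0.04 (SE 0.055), and mt-Cytb had -0.03 (SE 0.057). With library totals mt-Co1, mt-Cytb and mt-Nd4 turned to 0.04, 0.06 and 0.0018. Of the members with uncertain levels, mt-Nd3 and mt-Nd4l had -0.10 each, mt-Co2, mt-Co3 and mt-Atp6 had 0.05, 0.10 and 0.07, and mt-Atp8 had -0.19 (SE 0.20). The spread of mt-Atp8 was wide in both groups, 15.9 to 41.62 CPM in Q140 libraries and 18.26 to 46.02 CPM in wild type libraries.

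Libraries labelled Q140 Msh3-/- were set against Q140 libraries to ask how the Msh3 genotype goes with the Q140 differences. Since the Q140 libraries serve in both comparisons, a chance deviation in them gives opposite signs here. Of the 102 members, 3 fell in libraries labelled Q140 Msh3-/- (5.04% of all genes tested were called lower) and 1 rose (6.85% called higher). The 82 nuclear genes had a median log2 fold change of -0.05, with 67 below 0, beside -0.0108 and 46.6% above 0 over all genes, and the 7 mitochondrial members had a median of 0.10, with all 7 above 0. With library totals the same signs were seen, at medians of -0.115 and 0.0334, and 42 members fell, while the median of all genes was -0.0749. Under that scaling 3463 of all 19975 genes were called lower and 804 higher. Medium spiny neuron markers were all 12 called higher in libraries labelled Q140 Msh3-/-, with summed levels of 13450 to 15900 CPM against 9014 to 13540 CPM in Q140 libraries; their part in the result was not tested.

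The 4 members called were also called between Q140 and wild type, all 4 with the other sign. Atp5g1 had a lowest, median and highest level of 25.65, 27.14 and 31.08 CPM in libraries labelled Q140 Msh3-/- and 27.44, 31.6 and 33.75 CPM in Q140 libraries, a log2 fold change of -0.16 (SE 0.041, edgeR adjusted p 0.00711). Cyc1 had 62.95, 72.0 and 80.12 CPM in libraries labelled Q140 Msh3-/- and 73.97, 79.61 and 81.87 CPM in Q140 libraries, a log2 fold change of -0.13 (SE 0.038, edgeR adjusted p 0.019), lost without Q140 Msh3-/- M2. Ndufv3 had 47.22, 52.4 and 55.51 CPM in libraries labelled Q140 Msh3-/- and 52.81, 56.99 and 58.27 CPM in Q140 libraries, a log2 fold change of -0.11 (SE 0.039, edgeR adjusted p 0.0468), a call lost without 1 library in 12 of 16 cases. In all these genes the ranges overlapped. The levels of mt-Nd6 were 153.7, 206.4 and 251.1 CPM in libraries labelled Q140 Msh3-/- and 156.6, 166.1 and 200.0 CPM in Q140 libraries, overlapping, with a log2 fold change of 0.26 (SE 0.080, edgeR adjusted p 0.0269), a call lost without 1 library in 4 of 16 cases and under 7 of 15 other settings, library totals and FPKM among them. Ndufs3 had 39.13, 43.25 and 44.88 CPM in libraries labelled Q140 Msh3-/- and a log2 fold change of 0.09 (SE 0.033) that missed the threshold at an adjusted p of 0.0562, and mt-Nd2 had 0.16 (SE 0.063, adjusted p 0.1).

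By complex, 1 of 35 nuclear members of complex I (Ndufv3), 1 of 9 of complex III (Cyc1) and 1 of 15 of complex V (Atp5g1) fell, and none of 4 of complex II or 18 of complex IV did. The medians of complexes I to V, in order, were -0.05, -0.06, -0.07, -0.03 and -0.04, and all 9 nuclear values of complex III and all 4 of complex II lay below 0. Cox7c, called higher between Q140 and wild type, had a log2 fold change of -0.0079 (SE 0.059) between libraries labelled Q140 Msh3-/- and Q140, with 8.072, 8.301 and 10 CPM in libraries labelled Q140 Msh3-/-. The extremes of complex IV were the weakly expressed isoforms Cox7b2 at 0.41 (SE 0.29) and Cox6b2 at -0.41 (SE 0.18), neither called. At the ends of the other complexes, Ndufb4 had -0.12 (SE 0.096), Sdha and Sdhc -0.03 and -0.07, mt-Cytb 0.07, mt-Atp8 0.08 and Cycs -0.05, none of them called.

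The comparisons that share no library with Q140 against wild type give a separate view of the Q140 allele. Between libraries labelled Q140 Msh3+/- and Msh3+/-, 1 member rose (2.96% of all genes called higher) and 1 fell (3.49% called lower). Ndufs3 fell, with 38.9, 41.21 and 43.3 CPM in libraries labelled Q140 Msh3+/- and 42.87, 45.38 and 47.06 CPM in libraries labelled Msh3+/-, and 7 of 8 libraries labelled Q140 Msh3+/- lay below the lowest labelled Msh3+/-. Ndufs3 had a log2 fold change of -0.13 there (SE 0.032, edgeR adjusted p 0.00593). Cyc1 rose, with 68.64, 76.74 and 80.77 CPM in libraries labelled Q140 Msh3+/- and 65.33, 69.88 and 74.62 CPM in libraries labelled Msh3+/-, a log2 fold change of 0.12 (SE 0.037, edgeR adjusted p 0.0415), lost without 1 library in 12 of 17 cases. The nuclear median was 0.02, with 60 of 82 above 0, and the mitochondrial median -0.03, with 6 of 7 below 0. In this comparison 11 of 12 medium spiny neuron markers were called lower and 4 of 6 choroid plexus and ependymal markers higher; without Q140 Msh3+/- F1 Ndufs3 kept its call (edgeR adjusted p 0.0127), Cyc1 did not (edgeR adjusted p 0.0536), and the nuclear median was 0.034 with 61 of 82 above 0. The part of the neuron markers was not tested. Between libraries labelled Q140 Msh3-/- and Msh3-/-, no member was called by edgeR (0.0751% of all genes were) or by DESeq2, 2 had an unadjusted p under 0.05, and 39 of 82 nuclear values lay above 0. Cyc1, Ndufv3 and Ndufs3 had log2 fold changes of 0.03, 0.04 and -0.06 there, with SE from 0.033 to 0.039.

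Whether the Q140 difference itself changed with Msh3 genotype was tested as an interaction. No member passed for Msh3-/- (2.39% of all genes did) in edgeR, while 15 had an unadjusted p under 0.05 and DESeq2 called 2. The nuclear interaction values had a median of -0.07 with 73 of 82 below 0, and the 7 mitochondrial ones a median of 0.08 with all above 0. Over all genes the median was -0.00848 and 47.8% lay above 0. The interaction reuses the Q140 and wild type libraries, so a chance deviation in them gives signs opposite to those of Q140 against wild type. Cyc1 had an interaction of -0.16 (SE 0.055, edgeR adjusted p 0.0965), Ndufv3 -0.15 (SE 0.057, adjusted p 0.143), Atp5g1 -0.14 (SE 0.058, adjusted p 0.211) and mt-Nd6 0.38 (SE 0.11, adjusted p 0.0602). Some other settings gave 1 to 13 calls, among them 2 with a stricter count filter and 1 with a replicate block. Counts of 10 or more came only with library totals (10) and with log2 FPKM (12 and 13). The remaining settings gave none. Of the 12 medium spiny neuron markers 10 were called with an interaction above 0, and their part in the values of the respiratory genes was not tested. For Msh3+/- no member passed in edgeR or DESeq2 (0% of all genes in edgeR), and 6 had an unadjusted p under 0.05.

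Libraries labelled Q140 Msh3+/- had no member called against Q140 libraries in edgeR (1.98% of all genes were), with 20 at an unadjusted p under 0.05 and 1 called by DESeq2. The nuclear median was -0.05 with 73 of 82 below 0, beside -0.0052 and 47.9% above 0 over all genes. This comparison also shares the Q140 libraries with Q140 against wild type, so a chance deviation in them gives opposite signs. Called higher there were 8 of 12 medium spiny neuron markers, whose part was not tested, and 4 of 6 choroid plexus and ependymal markers; without Q140 Msh3+/- F1 no member was called by edgeR and the nuclear median was -0.0445, with 68 of 82 below 0. Ndufv3 came closest in complex I, at -0.13 (SE 0.039, edgeR adjusted p 0.0685), with 47.52, 50.84 and 57.35 CPM in libraries labelled Q140 Msh3+/- and 52.81, 56.99 and 58.27 CPM in Q140 libraries. Without Q140, the Msh3 labels went with no called member. Against wild type, no member was called in libraries labelled Msh3-/- (0.03% of all genes were) or Msh3+/- (0.01%) in edgeR or DESeq2, with 4 and 3 members at an unadjusted p under 0.05. The nuclear medians were 0.02 for libraries labelled Msh3-/- and -0.0019 for those labelled Msh3+/-. Cox7c, near Msh3, had log2 fold changes of 0.07 (SE 0.062) and 0.17 (SE 0.060) in these comparisons.

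Sex was the other label that went with called members. Over all groups, 1 member was higher (1.28% of all genes called higher) and 4 lower (1.65% called lower) in males than in females, and the nuclear median was -0.03 with 66 of 82 below 0. Atp5e, the epsilon subunit of the central stalk of complex V, had 22.63, 25.45 and 29.09 CPM in males and 24.62, 27.45 and 29.97 CPM in females, a log2 fold change of -0.11 (SE 0.023, edgeR adjusted p 0.0062), and the male mean was lower in 6 of 6 groups. Cox7a2l, counted here among the tissue-restricted or related isoforms of complex IV, had 74.77, 84.67 and 100.9 CPM in males and 71.56, 80.45 and 86.29 CPM in females, a log2 fold change of 0.10 (SE 0.024, adjusted p 0.0119), with a higher male mean in 5 of 6 groups. Cycs was lower in males by edgeR, at -0.15 (SE 0.04, adjusted p 0.0212), with 5.978, 6.761 and 8.584 CPM in males and 6.147, 7.474 and 9.19 CPM in females. Uqcrb and Cox7b had log2 fold changes of -0.09 each, with adjusted p of 0.0333 and 0.0448. The ranges of males and females overlapped for all 5 genes. Atp5e and Cox7a2l kept their calls in all 48 fits that left out 1 library and in the 12 other settings run. Cycs lost its call without the 5 libraries picked after the data were seen. Uqcrb and Cox7b lost theirs in 13 and 31 of the 48 fits and with library totals, FPKM or the animal code block. In 10 of the 48 fits, those without Q140 F4 and Q140 Msh3+/- F4 among them, 3 members were called.

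Genes that build and serve the complexes were counted in Q140 libraries against wild type, beside the 9.64% of all genes called higher and 10.2% called lower. Of 14 tested complex I assembly factors, 4 rose and none fell, at a median log2 fold change of 0.08, namely Foxred1 by 0.11, Acad9 by 0.10, Ecsit by 0.12 and Tmem126b by 0.11. Of 6 complex III factors, 2 rose and 1 fell: Uqcc1 and Uqcc3, which help to make cytochrome b, rose by 0.14 and 0.23, and Ttc19, which clears fragments of the Rieske protein, fell by 0.15 on the log2 scale. Of 20 complex IV factors 3 rose, the copper protein Cox19 by 0.24 (edgeR adjusted p 7.23e-06), Surf1 by 0.14 and Cox20 by 0.18. None of 4 complex II factors was called, and of 5 for complex V 1 rose, Atpif1, the inhibitor of ATP hydrolysis, by 0.16. Of 25 genes for the expression of mitochondrial DNA, Tbrg4 rose by 0.15 and Fastkd1 by 0.19 and Fastkd5 fell by 0.30; all 3 encode mitochondrial RNA-binding proteins of the FASTK family. Of 19 regulators of mitochondrial content, the deacetylase Sirt3 rose by 0.21 and the coactivator Ppargc1b fell by 0.32. The counts of these last 2 lists were below the shares over all genes in both directions.

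Fuel pathways upstream of the chain were read in the same way. Of 17 genes of pyruvate oxidation and the citric acid cycle, 4 rose and none fell, Pdha1 by 0.13, Idh3a by 0.14, Mdh2 by 0.12 and Dlat by 0.12, at a median of 0.03. Of 17 glycolysis genes, 3 rose and 4 fell; Gpi1, Gapdh and Pfkl rose by 0.16, 0.23 and 0.15, and Pfkp fell by 0.13. Aldoc, Hk2 and Eno1 are the other 3 that fell, and Aldoc is an enzyme found mostly in astrocytes, whose markers had lower summed reads in Q140 libraries; the part of these cells in that result was not tested. In libraries labelled Q140 Msh3-/- against Q140 libraries, a comparison that shares the Q140 libraries, Tmem126b fell by 0.15, Sdhaf1 by 0.20, Uqcc1 by 0.10, Cox19 by 0.14, Atpif1 by 0.10 and Tbrg4 by 0.11, 1 gene of each of 6 lists, and in glycolysis Pfkp rose by 0.11; over all genes 5.04% were called lower and 6.85% higher. No regulator or citric acid cycle gene was called there.

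The promoters of nuclear members were read for sites of factors known to act on respiratory genes, since 18 of these genes rose in Q140 libraries. RefSeq promoters on GRCm38.p6, from 250 bases before to 50 bases after a start, were found for 66 of 84 nuclear members that are no pseudogenes, with 71 promoters. On either strand, the NRF1 motif (GCGC, then 2 bases of any kind, then GCGC) was in 26.8% of these promoters, the ETS-type motif CCGGAAG in 22.5% and the YY1 motif AAGATGGC in 12.7%, beside 6.23%, 8.86% and 2.75% of all 32851 promoters in the table. Among the 15 promoters of members that rose in Q140 libraries the shares were 20%, 6.67% and 6.67%, and among the 55 of members not called 29.1%, 25.5% and 14.5%. Members that rose and hold a motif are Atp5g3, Ndufa11 and Ndufa8 (NRF1), Ndufb6 (ETS) and Ndufa3 (YY1). The promoters of Ndufv3, chr17:31519865-31520164 on the plus strand, and Atp5g1, chr11:96075582-96075881 on the minus strand, which rose, are printed beside that of Ndufs3, chr2:90904672-90904971 on the minus strand, which fell. Each is 300 bases, 5′ to 3′ in the direction of the gene, and capitals mark matches to any of the 3 motifs.
Ndufv3: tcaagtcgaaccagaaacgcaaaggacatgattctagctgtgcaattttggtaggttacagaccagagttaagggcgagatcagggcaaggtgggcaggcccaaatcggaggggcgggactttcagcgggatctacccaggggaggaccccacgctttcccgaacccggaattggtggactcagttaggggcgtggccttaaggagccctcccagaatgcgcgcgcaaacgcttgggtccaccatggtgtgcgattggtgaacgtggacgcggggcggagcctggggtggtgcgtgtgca
Atp5g1: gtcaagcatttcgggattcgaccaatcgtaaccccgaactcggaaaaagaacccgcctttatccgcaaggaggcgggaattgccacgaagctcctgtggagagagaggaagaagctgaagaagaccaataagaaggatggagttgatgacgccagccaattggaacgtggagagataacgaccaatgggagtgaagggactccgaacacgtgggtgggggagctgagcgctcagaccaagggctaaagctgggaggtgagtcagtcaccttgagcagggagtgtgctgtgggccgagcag
Ndufs3: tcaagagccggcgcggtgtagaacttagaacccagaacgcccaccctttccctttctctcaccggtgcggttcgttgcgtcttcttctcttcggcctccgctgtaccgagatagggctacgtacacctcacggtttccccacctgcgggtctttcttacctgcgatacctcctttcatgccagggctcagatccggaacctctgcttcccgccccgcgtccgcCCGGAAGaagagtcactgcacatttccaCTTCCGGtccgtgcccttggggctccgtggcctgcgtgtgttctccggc

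None of the 3 motifs is in the Ndufv3 and Atp5g1 windows, and the Ndufs3 window holds the ETS-type motif at 2 places, 1 just before and 1 just after the start, on opposite strands. A match describes letters in the window and not binding of a factor.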

How the data were processed

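Striatal RNA was extracted with RNeasy columns and made into 48 sequencing libraries with Illumina's stranded TruSeq chemistry, per the labels' protocols. The deposited counts are whole reads per gene with no scaling, and the deposited FPKM are the same counts divided by gene length and library total. Per the submitters' processing notes the authors used STAR 2.7.5c, SAMtools 1.10 and HTSeq 0.12.3 on GRCm38 (mm10); the annotation release, strand setting and treatment of reads with several matches are not given in the sources used here. The design text names 7 to 8 mice a group, and 9 libraries carry the Msh3+/- label; all were used.

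The quasi-likelihood test of edgeR 4.0.16 (R 4.3.3) was run two-sided on all libraries in 1 fit, with a mean for each of 6 groups and a sex term, after filterByExpr by group (minimum count 10, minimum total 15) and TMM scaling; dispersions were estimated with glmQLFit's robust option. In each of 10 comparisons, genes were called at a Benjamini-Hochberg adjusted p under 0.05, taken over all 19975 genes tested. Genes not tested held 0.0383% of counts, library totals were 33.67 to 52.81 M counts, and the common biological coefficient of variation over all genes was 10.3%. For members with many counts, spread between libraries thus limits precision more than depth does. For members with few counts, such as Cox6b2 at a mean of 67, depth limits it too. CPM use TMM-scaled totals; levels between genes are compared in FPKM only. Copies were searched with BLAST+ 2.17.0 at 95% identity or more among GENCODE M21 transcripts, and a near-identical copy of the whole gene covers at least 95% of it at 99% identity. Alternatives were RLE scaling, library totals, TMM without mitochondrial genes, no or a stricter count filter, DESeq2 1.42.0, no sex term, only the groups compared, plate column or row, a replicate block, the animal code stem as a random block in limma 3.58.1, limma on log2 of FPKM with pseudocounts of 0.1 and 1, and leaving out libraries.

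The members, the pathway and marker lists and the tests were chosen with earlier results of these data known. Genes named are the 13 mitochondrial members, up to 4 called members of each complex and comparison by smallest p, the extremes of each complex by fold change in the comparisons of Q140 with wild type and of Q140 Msh3-/- with Q140, isoform families, the highest and lowest members by FPKM, and up to 4 called genes of each other list. Sdhb, Sdhd, Aldoc, Hk2, Eno1, the 5 less significant complex I members and the values of Cox7c and Ndufv3 outside their own comparisons were added after their values were seen.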

Additional observations from a re-analysis of the deposited data

Results flagged for a closer look

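Dixon's criterion was applied in each group, of 7 to 9 libraries, to the CPM of the members named by rule. It was also applied to the mitochondrial and nuclear shares of counts. In 21 of 324 such sets 1 library stood apart from the others. Chance flags about 1 in 20 groups. Q140 Msh3+/- F4 stood apart for Cox6b1 at 134.7 CPM, Uqcrq at 51.62, Cycs at 8.51, mt-Atp6 at 52.95 and mt-Co2 at 65.69 CPM, and it also had the highest nuclear summary value of all libraries. Q140 F4 stood apart for Cox6c at 105.8 and Cox7b at 102.1 CPM, both called members in Q140 against wild type. Among males of that group, Q140 M4 did so for mt-Co3 at 71.27 CPM and mt-Atp8 at 41.62 CPM, and Q140 M3 for mt-Nd5 at 9779 CPM. The short gene mt-Atp8 also had a library apart in Q140 Msh3+/- (M3, 39.39 CPM) and in Q140 Msh3-/- (F1, 42.81 CPM), and wild type F3 had the highest level of all, 46.02 CPM.

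Msh3-/- M3 was low for mt-Co1 at 22000 and mt-Cytb at 14410 CPM, and Msh3-/- M1 for Atp5g3 at 103.1 and Cox5a at 52.02 CPM. Wild type M1 stood apart for Cycs at 8.584 and Ndufb4 at 3.742 CPM. The remaining values were Cox6b1 at 101.0 CPM in Q140 Msh3-/- M2, Cox4i2 at 2.326 CPM in Q140 Msh3+/- M4 and Ndufa4l2 at 2.613 CPM in Q140 F3.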

How the results depend on the processing

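With library totals, 62 members were called in Q140 against wild type, 42 in Q140 Msh3-/- against Q140, 8 in Q140 Msh3+/- against Q140, 13 in Q140 Msh3+/- against Msh3+/-, 10 in the interaction with Msh3-/- and 3 by sex, with nuclear medians of 0.154 and -0.115 in the first and second comparison. With log2 FPKM and a pseudocount of 0.1 these counts were 64, 47, 11, 15, 12 and 3, with medians of 0.154 and -0.113, and with a pseudocount of 1 they were 64, 47, 12, 14, 13 and 3, with a median of 0.153 in the first. Calls over all genes rose as well. Library totals gave 6180 such calls in the first comparison and 4267 in the second, and log2 FPKM with a pseudocount of 0.1 gave 6030 and 4280. Only the groups compared gave 13 in Q140 against wild type. Q140 Msh3-/- against Q140 gave 2 with no count filter and 1 with plate column. Q140 Msh3+/- against Msh3+/- gave 1 with no count filter, plate column, plate row or the replicate block. The interaction with Msh3-/- gave 2 with the stricter filter or DESeq2 and 1 with plate column or the replicate block. DESeq2 called 1 in Q140 Msh3+/- against Q140, and the random block gave 3 by sex. Another setting left out 5 libraries picked after seeing the data and not by Dixon's criterion. Its counts were 11 in Q140 against wild type, 1 in Q140 Msh3+/- against Q140, 1 in Q140 Msh3+/- against Msh3+/- and 2 by sex. Apart from scaling, filters and numbers of libraries, the cause was not tested. No result with a call changed sign.

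Leaving out 1 library at a time gave 13 (without wild type F3) to 28 members in Q140 against wild type, 1 (without Q140 Msh3-/- M2) to 7 in Q140 Msh3-/- against Q140, 0 to 2 in Q140 Msh3+/- against Q140, 1 to 3 in Q140 Msh3+/- against Msh3+/-, 0 to 2 in the interaction with Msh3-/- and 3 to 6 by sex, and 0 in the other 4 comparisons. The nuclear medians ran from 0.0554 to 0.0853 and from -0.0576 to -0.031, and the mitochondrial medians from -0.142 to -0.061 and from 0.0748 to 0.126, in the first and second comparison. Cyc1, Ndufv3, Atp5g1, Cox7c and Atp5g3 kept their calls in Q140 against wild type in all 15 such fits and all 15 other settings.

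Replicate numbers did not pair the libraries: deviations from group means over all genes tested correlated at a median of 0.093 between libraries of the same sex and number, and 0.0886 between other numbers. With the replicate block 20 members were called in Q140 against wild type, and Ndufv3 lost its call in Q140 Msh3-/- against Q140.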
